A study of Rattus norvegicus with 36 samples.

Results

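The transcription factor p53 is stabilised in cells with damaged DNA and switches on genes of cell cycle arrest and genes of cell death. Genes of apoptosis among its targets were followed here in the rat thyroid, chosen by name: Aen, Bax, Bbc3, Fas, Pmaip1, Tp53inp1 and Perp. All 7 had a probe, and they make up 9 of the 30367 probes of the array and 7 of the 15154 genes that could be named. The probe of Pmaip1 was well above background on only 3 of 36 arrays, so that 6 of the genes were measured. The rats were adult male Sprague Dawley rats, 4 in each of 9 groups, injected in the tail vein with 131I in saline, a radioactive iodine that follicular cells of the thyroid take up as iodide. The activity was 9, 88, 170 or 260 kBq in the lower groups and 340, 760, 1300 and 4700 kBq in the upper ones, and the 4 control rats (0 kBq) were mock-treated. Thyroid tissue was taken 24 h after injection and the RNA of each rat was hybridised to 1 Agilent 1-colour array of rat transcripts, so that the 36 arrays are 36 rats. The irradiated groups were injected in order of rising activity and the controls last, so among the irradiated groups activity and place in the injection order cannot be told apart.

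Expression is given as log2 intensity minus the 75th percentile of the array, so that 0 is the level of a bright probe and a difference of 1 is a doubling. Before the log was taken, that percentile ranged from 1564 to 4288 over the arrays, 62.6 to 91.0% of the probes were well above background, and 0 spots were saturated. The thyroid label was checked against 10 markers of follicular cells, the hormone-producing cells. Tg (thyroglobulin, the precursor of the thyroid hormones) was well above background on 36 of 36 arrays, but the mean of the 10 markers ran from -4.86 to 3.92 and was below 0 on 18 of 36 arrays, 1 of them a control and 1 a 4700 kBq array. Parathyroid signal was found on some arrays as well. The mean of 3 parathyroid markers (Pth, Gcm2 and Casr) ran from -7.78 to 3.95 and was below 0 on 21 of 36 arrays. Markers of stratified squamous epithelium ran from -5.07 to 3.55 and those of lymphoid cells from -6.79 to 0.59. The mean of 7 fast muscle markers ran from -3.20 to 8.18 and was below 0 on 1 of 36 arrays. The samples thus differed in how much follicular and other tissue they showed, within as well as between groups, and fewer cells of a type and less RNA per cell cannot be told apart in such bulk tissue.

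The 7 genes act at different points of the death pathways. Bax forms the pores through which the outer mitochondrial membrane releases cytochrome c, and Bbc3 (PUMA) and Pmaip1 (Noxa) are BH3-only proteins that free or activate it. Fas is a death receptor of the cell surface. Aen is a nuclease induced by p53 in apoptosis, Tp53inp1 is a nuclear stress protein that cooperates with p53 and acts in autophagy, and Perp is a membrane protein of epithelial cells that also belongs to desmosomes. In the RefSeq annotation of the rat assembly GRCr8, 5 of the 7 genes (Aen, Bax, Bbc3, Fas and Perp) lie on chromosome 1, Tp53inp1 lies on chromosome 5 and Pmaip1 on chromosome 18.

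The stretch before the start of Aen is shown because Aen is the only member whose levels at 4700 kBq did not overlap those of the controls. RefSeq promoter windows of GRCr8, from 250 bases before to 50 bases after a start site, were used for 4 of the 7 genes, Aen, Fas, Perp and Pmaip1. The consensus p53 half-site, which is 10 bases long, occurred in 2671 of all 33469 windows (7.98%), searched on both strands with no mismatch. The Aen window held 1, and it stood at the head of an adjacent pair of half-sites with 2 mismatches in all. A pair with at most 2 mismatches occurred in 292 windows (0.872%). The windows of Fas, Perp and Pmaip1 held no exact half-site, which says only that the motif is not in these windows. The pair is in capitals in the following stretch at chr1:142224413-142224522, plus strand, read 5′ to 3′.
Aen upstream stretch: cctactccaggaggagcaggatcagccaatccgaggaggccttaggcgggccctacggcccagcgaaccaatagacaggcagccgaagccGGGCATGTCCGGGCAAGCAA
The pair lay 30 to 11 bases before the start site that the window is built on, and the annotated span of the gene opens 34 bases before that site, so that the pair falls inside it. Whether p53 was bound there was not measured.

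Aen had the highest ratio to controls at 4700 kBq among the members. In the controls, rats 1 to 4 had levels of 0.86, 1.03, 0.997 and 0.53. At 4700 kBq they had 3.08, 3.46, 1.30 and 3.26. All 4 rats at 4700 kBq thus lay above all 4 controls, with rat 3 well below the other 3. The group means (± SD, n = 4) were 0.85 ± 0.23 in the controls and 2.78 ± 0.996 at 4700 kBq. The log2 ratio was 1.92 (SE 0.41), with an unadjusted p of 0.0001 and an adjusted p of 0.232 in limma's moderated test over all 30367 probes. Among all probes, 1.28% were higher at an unadjusted p under 0.05 in this comparison, and 0 probes met both limits of a group call, 0.01 for the adjusted p and 1.5-fold for the size, against 503 probes at an unadjusted p under 0.05. Without 4700 kBq rat 3 the ratio was 2.41 and the adjusted p 0.0085 (limma), over alternatives that ranged from 2.4e-05 to 0.9998.

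At the lower activities the Aen levels were 1.11, 1.09, 1.89 and 1.29 at 9 kBq and 1.56, 1.39, 1.67 and 1.38 at 88 kBq. They were 1.64, 1.49, 1.26 and 1.87 at 170 kBq and 2.16, 2.02, 1.31 and 1.49 at 260 kBq. Every one of these 16 rats lay above the highest control. At 340 kBq the levels were 1.47, 0.88, 1.33 and 1.62, with rat 2 among the controls. The levels were 1.52, 1.59, 3.005 and 2.64 at 760 kBq and 1.60, 0.98, 2.76 and 3.06 at 1300 kBq, and in each of these groups rats 1 and 2 stood far below rats 3 and 4. Aen thus had no overlap with the controls in 6 of the 8 comparisons, all but 340 and 1300 kBq. The share of all probes with 4 of 4 rats above all controls was 1.48% at 9 kBq, 1.67% at 88 kBq, 1% at 170 kBq, 0.823% at 260 kBq, 1.38% at 760 kBq and 0.715% at 4700 kBq, and it was 4.04% at 340 kBq and 1.07% at 1300 kBq. The 8 comparisons share the 4 control rats. The two-sided exact permutation p was 0.0286 in each of the 6, the smallest that 4 against 4 rats can give, and 48 such tests were run over the members. The log2 ratio to controls was 0.49 at 9 kBq, 0.65 at 88 kBq, 0.71 at 170 kBq, 0.89 at 260 kBq, 0.47 at 340 kBq, 1.33 at 760 kBq and 1.25 at 1300 kBq, each with an SE of 0.41, and the lowest adjusted p among these 7 was 0.581 (limma). The median of all probes was itself above the controls by 0.03 to 0.31 in the 8 groups, the most at 340 kBq, and by -0.02 to 0.04 after quantile normalization. No neighbouring pair of irradiated groups was free of overlap.

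**Figure D1:**
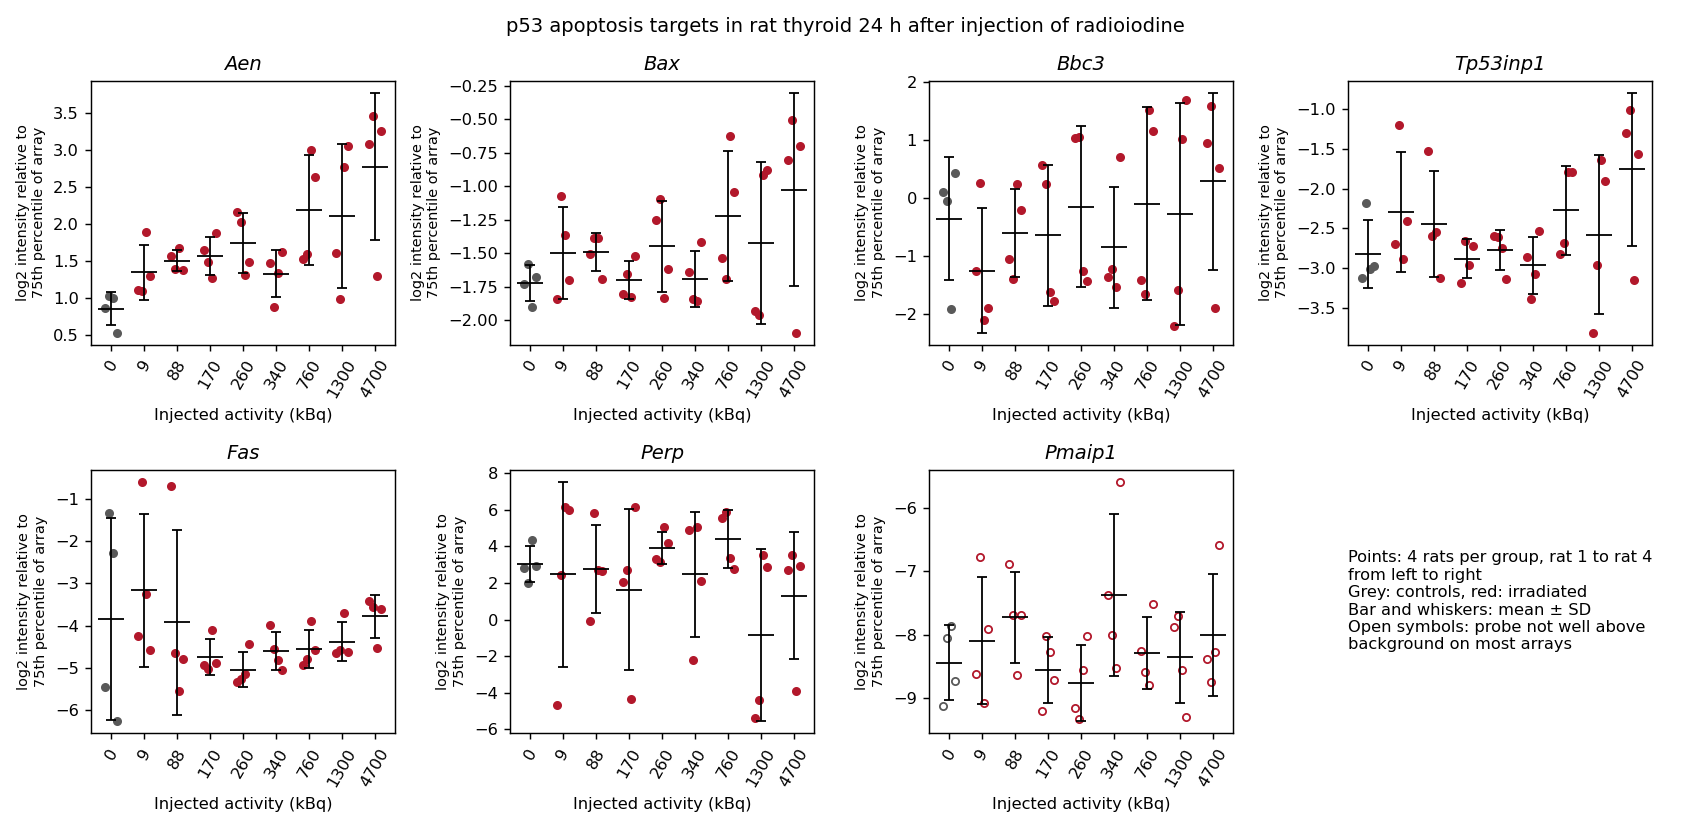
Level of each of the 7 genes (log2 intensity relative to the 75th percentile of the array) against injected activity, with 1 point per rat and the mean ± SD of 4 rats per group. Aen is the only panel in which the 4 rats at 4700 kBq all lie above the 4 controls, and in Aen, Bax, Bbc3 and Tp53inp1 rats 1 and 2 at 760 and 1300 kBq and rat 3 at 4700 kBq lie below the other rats of their group.

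Over the 32 irradiated rats the level of Aen had a slope of 0.52 per 10-fold activity (SE 0.14), with an unadjusted p of 0.0008 and an adjusted p of 0.151 in limma. The slope passed the unadjusted limit upwards for 4.53% of all probes and an adjusted p under 0.05 for 0.0461%. The exact permutation test of the slope over the 8 group means gave p = 0.0098, 1 of 6 such tests run. The slope was 0.41 among the 13 irradiated arrays of the first scan day and 0.59 among the 19 of the second. Without the 4700 kBq group it was 0.36, with an adjusted p of 0.818 (limma). Against the mean of the 7 lower activities, 4700 kBq was higher by 1.09 (SE 0.31, adjusted p 0.743, limma), where 1.35% of probes were higher at an unadjusted p under 0.05 and 0.0329% passed an adjusted p under 0.05. Leaving out 4700 kBq rat 3 raised that difference to 1.59, and the adjusted p was then under 0.05. Over all irradiated groups against controls it was 0.96 (SE 0.31, adjusted p 0.968, limma), where 2.98% of probes were higher at an unadjusted p under 0.05 and 0 passed the adjusted limit. The test of any difference among the 8 irradiated means gave an adjusted p of 0.986 for Aen (limma), with 0.0132% of probes past 0.05.

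The second Aen probe was dimmer, with means of -3.22 ± 0.25 in controls and -1.48 ± 1.23 at 4700 kBq (SD, n = 4). Its values correlated with those of the first at r = 0.91 over the 36 arrays, and it gave a log2 ratio of 1.74 (SE 0.51) at 4700 kBq. It had no overlap with the controls in 2 of 8 comparisons, where the first probe had none in 6 of 8. On its 4700 kBq arrays 3 of 4 rats lay above all controls, rat 3 at -3.29 being the exception. The genes with the most similar pattern over the 36 arrays were Bax (r = 0.87), Svop (0.82) and Ephx1 (0.80).

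Bax had a smaller ratio to controls and 1 of 4 rats that went the other way. Rats 1 to 4 had -1.73, -1.58, -1.90 and -1.68 in the controls. At 4700 kBq they had -0.81, -0.50, -2.09 and -0.70. Rats 1, 2 and 4 thus lay above all controls and rat 3 lay below all of them. The mean was -1.72 ± 0.13 in controls and -1.03 ± 0.72 at 4700 kBq (SD, n = 4), a log2 ratio of 0.69 (SE 0.29, unadjusted p 0.0241, adjusted p 0.9999, limma). Without rat 3 the ratio was 1.05. At 760 kBq the levels were -1.54, -1.69, -0.63 and -1.04, and at 1300 kBq -1.93, -1.96, -0.92 and -0.88, so rats 3 and 4 were again the high ones. From 9 to 340 kBq the group means lay between -1.70 and -1.45. The slope was 0.16 per 10-fold activity (SE 0.10, adjusted p 0.551, limma), and the exact permutation p over group means was 0.124. The slope was 0.02 on the first scan day and 0.28 on the second. Its closest patterns were the second Aen probe (r = 0.88), Tp53inp1 (0.84) and Gdf15 (0.82).

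Tp53inp1 showed the same arrangement of rats at the highest activities. Rats 1 to 4 had -3.13, -2.18, -3.01 and -2.97 in the controls. At 4700 kBq they had -1.30, -1.003, -3.15 and -1.56. Rats 1, 2 and 4 stood above every control and rat 3 below. The means were -2.82 ± 0.43 and -1.75 ± 0.96 (SD, n = 4), and the log2 ratio was 1.07 (SE 0.45, unadjusted p 0.0235, adjusted p 0.9999, limma). It was 1.54 without rat 3. At 760 kBq the levels were -2.82, -2.69, -1.79 and -1.79, and at 1300 kBq -3.81, -2.97, -1.63 and -1.90. High values were also found at 9 kBq in rat 2 (-1.20) and at 88 kBq in rat 1 (-1.52), the arrays with the highest lymphoid marker means (0.59 and -0.06). The slope was 0.15 per 10-fold activity (SE 0.16, adjusted p 0.762, limma) and was -0.11 without the 4700 kBq group. With 1 rat left out it ran from 0.05, without 4700 kBq rat 2, to 0.29, without 9 kBq rat 2. Against the mean of the lower activities, 4700 kBq differed by 0.85 (SE 0.34, adjusted p 0.9999, limma), and by 1.31 without 4700 kBq rat 3. Among the closest patterns were Cyp4f17 (r = 0.85) and Tyms (0.84).

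Bbc3 fell into high and low arrays in most groups. Rats 1 to 4 had 0.10, -0.06, -1.92 and 0.43 in the controls. At 4700 kBq they had 0.94, 1.58, -1.90 and 0.51. In each group a single rat, rat 3, was low, and the other 3 rats at 4700 kBq exceeded every control. The means were -0.36 ± 1.06 and 0.28 ± 1.52 (SD, n = 4), with a log2 ratio of 0.65 (SE 0.91, adjusted p 0.9999, limma) that was 1.37 without rat 3 of the 4700 kBq group and 0.13 without rat 3 of the controls. At 760 kBq the levels were -1.41, -1.65, 1.51 and 1.15, and at 1300 kBq -2.21, -1.59, 1.005 and 1.67. The slope was 0.52 per 10-fold activity (SE 0.28, adjusted p 0.498, limma), as steep as that of Aen but with a larger error, and the exact permutation p over the 8 group means was 0.0053. Follicular content was not even over the groups. The mean of the follicular markers was below 0 in 3 of 4 rats at 9 and 340 kBq and in 1 of 4 at 4700 kBq. In the other irradiated groups it was below 0 in 2 of 4. The exact tests of the slope took no account of this, here and for the other members. The slope was 0.26 on the first scan day and 0.73 on the second. The closest patterns were Nol4 (r = 0.96), Dhodh (0.95) and Mycn (0.95).

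Pmaip1 gave almost no signal. Its probe was well above background on 3 of 36 arrays, rat 2 of 9 kBq (-6.77), rat 4 of 340 kBq (-5.59) and rat 4 of 4700 kBq (-6.59), and on 0 of the 4 control arrays. Its closest patterns were Hmga2 (r = 0.84), Ercc6l (0.79) and Asic3 (0.77), but values of a probe at this level carry mostly background. No ratio to the controls is given, since at most 1 of the 4 arrays of any group measured the gene.

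Fas varied most among the controls and the rats of 9 and 88 kBq. Rats 1 to 4 had -5.45, -1.34, -2.29 and -6.25 in the controls. At 4700 kBq they had -3.42, -3.56, -4.53 and -3.59, inside the range of the controls. The log2 ratio was 0.06 (SE 0.88, adjusted p 0.9999, limma). It was 0.89 without control rat 2 and -0.74 without control rat 4. The highest levels of all were those of 9 kBq rat 2 (-0.60), 88 kBq rat 1 (-0.69) and control rat 2 (-1.34), and in these arrays the mean of 7 lymphoid markers was 0.59, -0.06 and -0.21, while it was -4.62 or lower on every other array. Control rat 3 had a Fas level of -2.29 with a lymphoid mean of -6.24, and the second Fas probe gave -4.82 there. The slope with activity was -0.28 (SE 0.25, adjusted p 0.7001, limma) and was 0.03 without 9 kBq rat 2. The second probe had means of -4.82 ± 1.15 in controls and -4.00 ± 0.34 at 4700 kBq (SD, n = 4), with a slope of 0.20 (SE 0.16), so that the 2 probes differed in the sign of the slope. The part of the lymphoid tissue in these values was not tested. The closest patterns were Oas1d (r = 0.86), Trat1 (0.85) and Icos (0.85).

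Perp had the widest range, from -5.41 to 6.16. Rats 1 to 4 had 2.82, 1.997, 4.38 and 2.95 in the controls. At 4700 kBq they had 2.68, 3.52, -3.91 and 2.95. Rat 3 stood far below all others, and without it the log2 ratio moved from -1.73 (SE 2.28, adjusted p 0.9999, limma) to 0.01. Levels below -4 were also found at 9 kBq in rat 1 (-4.68), at 170 kBq in rat 3 (-4.36) and at 1300 kBq in rats 1 and 2 (-5.41 and -4.42). The mean of 6 markers of simple epithelium, such as the junction genes Cdh1 and Epcam, was -6.42, -4.46, -6.65 and -4.79 on these 4 arrays and -4.68 on the array of 4700 kBq rat 3. The highest levels were 6.16 at 170 kBq in rat 4, 6.14 at 9 kBq in rat 3 and 5.98 at 9 kBq in rat 4, where the mean of 8 squamous epithelium markers was 3.55, 3.43 and 3.47. The part of these tissues in the Perp values was not tested. The slope with activity was -0.60 (SE 0.78, adjusted p 0.811, limma), -1.88 on the first scan day and 0.68 on the second. With 1 rat left out it ran from -1.35, without 9 kBq rat 1, to -0.20, without 4700 kBq rat 3. The closest patterns were Esrp1 (r = 0.99), Eps8l1 (0.99) and Bicdl2 (0.98).

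**Figure D2:**
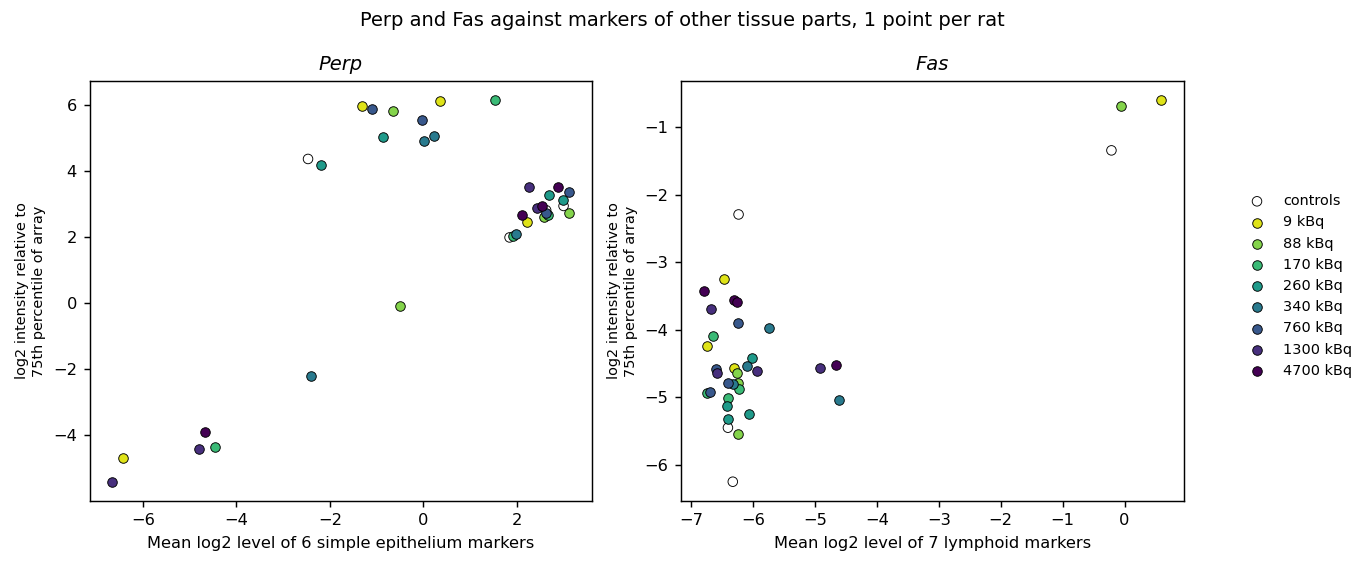
Level of Perp against the mean of 6 simple epithelium markers (left) and of Fas against the mean of 7 lymphoid markers (right), both axes as log2 intensity relative to the 75th percentile, 1 point per rat and coloured by activity. The 5 Perp values below -3.9 have the simple epithelium means between -6.65 and -4.46, and the 3 highest Fas values are the 3 arrays with lymphoid means from -0.21 to 0.59.

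The rats with low Aen, Bax, Tp53inp1 and Bbc3 at 760, 1300 and 4700 kBq were also those with low follicular markers. The mean of the 10 markers was -0.07, -4.29, 3.73 and 3.35 in rats 1 to 4 at 760 kBq. It was -4.86, -3.18, 2.98 and 3.02 at 1300 kBq. At 4700 kBq it was 2.93, 3.54, -2.64 and 3.25, and in the controls 3.45, 2.28, -3.25 and 3.92. In these 4 groups each rat with a marker mean below 0 had a Bbc3 level of -1.41 or lower and each of the others had one of -0.06 or higher. In the same 4 groups the fast muscle mean was also higher in the rats with low follicular markers. It was 7.04 and 6.97 in rats 1 and 2 at 760 kBq against -3.20 and 6.72 in rats 3 and 4, and 8.18 and 7.50 against 5.80 and 6.58 at 1300 kBq. In rat 3 it was 7.83 at 4700 kBq, where the other rats had 3.88 to 6.99, and 7.18 in the controls, where the others had 6.20 to 6.83. The part of muscle in the levels of the members was not tested. Over the other groups the marker mean lay between -4.69 and 2.68 at 9 kBq, -4.19 and 3.64 at 88 kBq, -4.26 and 3.36 at 170 kBq, -3.28 and 3.73 at 260 kBq, and -4.24 and 2.77 at 340 kBq.

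**Figure D3:**
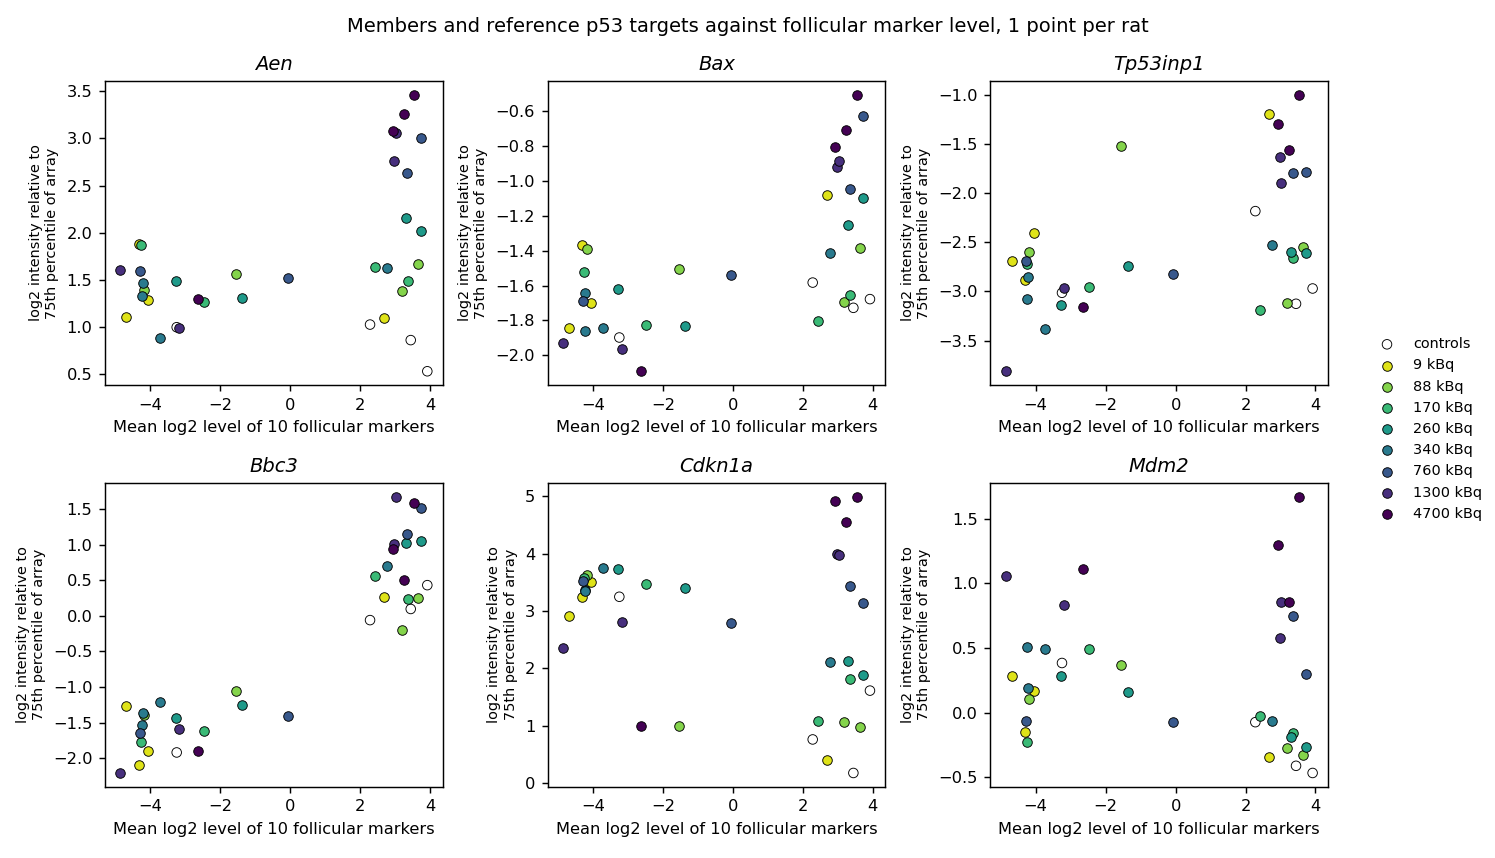
Levels of Aen, Bax, Tp53inp1, Bbc3 and the reference targets Cdkn1a and Mdm2 against the mean of 10 follicular markers (log2 intensity relative to the 75th percentile on both axes), 1 point per rat, open for controls and darker with activity. Aen runs from 0.53 in a control to 3.46 at 4700 kBq on arrays with marker means above 2, and from 0.88 to 1.89 on arrays with means below 0.

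Whether the slope with activity changed with the follicular marker mean was tested by adding that mean and its product with log10 activity to the fit over the 32 irradiated arrays. The test was chosen with the values of the members in view. The product term of Aen was 0.144 (SE 0.0223), so that the slope per 10-fold activity grew by that amount for each unit of the marker mean, with an adjusted p of 0.00282 in limma over all probes. It passed for 0.0329% of all probes. With any 1 rat left out the adjusted p of Aen was at most 0.0229, with the slide or the scan day as a block it was 0.00377 and 0.00148, and without the 4700 kBq group it was 0.296, with a term of 0.136. The term did not pass in the other 5 members measured, at 0.0724 for Bax (adjusted p 0.362, limma), 0.104 for Tp53inp1, 0.0811 for Bbc3 (both 0.601), 0.0240 for Fas (0.953) and 0.280 for Perp (SE 0.224, 0.725). Without 9 kBq rat 2, Bax (adjusted p 0.0076, limma) and Tp53inp1 (0.00549) passed as well. That array was the richest in lymphoid markers. It was also the only array at 9 kBq with a follicular mean above 0, at 2.68. With the mean of 4 C cell markers in place of the follicular mean Aen passed too (adjusted p 0.0159), and with squamous or slow muscle markers it did not (0.99998 and 0.968, limma). The C cell mean was below 0 on 18 of 36 arrays, the same ones as the follicular mean. The C cell and follicular lists thus divide the arrays alike, and the C cell fit was not an independent check.

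At a marker mean of 3.20, the upper quartile of the irradiated arrays, the level of Aen rose by 0.95 per 10-fold activity (SE 0.12, adjusted p 2.5e-05, limma), in a fit where 0.194% of all probes passed. This is the fit that was chosen with the values of the members in view, and its adjusted p-values do not allow for that choice. At the lower quartile of -4.09 the slope of Aen was -0.10 (SE 0.11, adjusted p 0.603), and 0 probes passed by limma there. The lowest marker mean at 4700 kBq was -2.64, in 1 rat, and the highest at 9 kBq was 2.68, also in 1 rat. The slopes at both quartiles thus reach beyond the arrays of these groups and are values of the fit. For Bax the slopes were 0.35 (SE 0.10) and -0.18 (SE 0.09), for Bbc3 0.43 (SE 0.16) and -0.17 (SE 0.15), and for Tp53inp1 0.41 (SE 0.18) and -0.35 (SE 0.17) at the upper and the lower quartile, none of which passed. The markers were read on the same arrays, they divide the arrays into high and low ones with few between, and a response of the markers themselves to 131I cannot be told apart from a difference in the tissue sampled. With the means of 4 tissue lists as covariates in the comparison of 4700 kBq with controls, the log2 ratio of Aen was 1.99 with an adjusted p of 0.0282 (limma), still short of the limit of 0.01. With the same covariates the slope of Aen was 0.37 per 10-fold activity (adjusted p 0.145, limma), beside 0.52 without them. The difference of 4700 kBq from the lower activities was then 1.01 (adjusted p 0.179, limma).

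**Figure D4:**
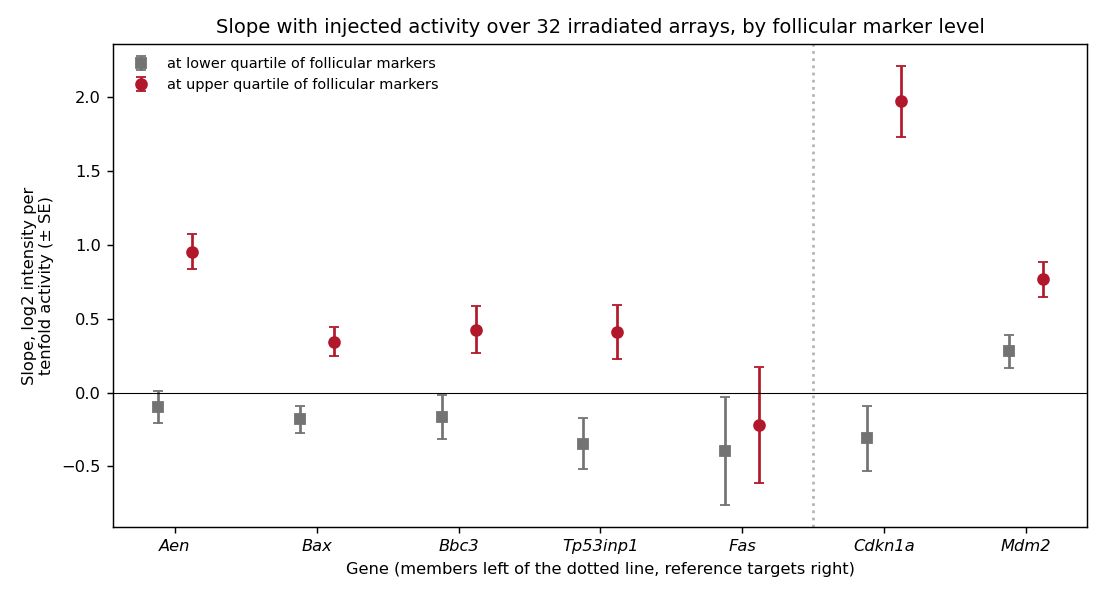
Slope of expression with injected activity (log2 intensity per 10-fold activity, ± SE, 32 irradiated arrays) at the lower and the upper quartile of the follicular marker mean, for 5 of the members and the 2 reference targets. The fitted slope of Aen is -0.10 at the lower quartile and 0.95 at the upper, and that of Cdkn1a is -0.31 and 1.97.

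Cdkn1a, the inhibitor of cyclin-dependent kinases through which p53 arrests the cell cycle, and Mdm2, the ubiquitin ligase that degrades p53, served as references. Rats 1 to 4 had Cdkn1a levels of 0.18, 0.76, 3.25 and 1.61 in the controls and 4.92, 4.99, 0.99 and 4.55 at 4700 kBq, with rat 3 low at 4700 kBq and high in the controls. The log2 ratio of Cdkn1a at 4700 kBq was 2.41 (SE 0.82, adjusted p 0.9999, limma). Its slope was 0.62 per 10-fold activity (SE 0.26, adjusted p 0.372, limma), so that neither passed. The product term of Cdkn1a, from the fit chosen with the values of the members in view, was 0.313 (SE 0.0453, adjusted p 0.00108, limma). Mdm2 had -0.41, -0.07, 0.38 and -0.47 in the controls and 1.30, 1.67, 1.11 and 0.85 at 4700 kBq, so that here rat 3 lay with the others. Mdm2 was higher at 4700 kBq by 1.38 on the log2 scale (SE 0.24, adjusted p 0.0332, limma), short of the limit of 0.01, and it rose with activity by 0.46 per 10-fold (SE 0.09, adjusted p 0.0296, limma). Its slope was 0.77 (adjusted p 0.00113) at the upper and 0.28 (adjusted p 0.174) at the lower quartile of the follicular markers, but its product term of 0.0670 did not pass (adjusted p 0.601, limma).

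A list of 20 genes of p53 arrest and feedback with a probe included the 2 references, Cdkn1a and Mdm2. Of the 20, 1, Mdm2, had an adjusted p under 0.05 at 4700 kBq, where 0.0198% of all probes did. At an unadjusted p under 0.05, 5 were higher and 0 lower, against 1.28% and 0.372% of all probes. Beside Cdkn1a, with a log2 ratio of 2.41 (SE 0.82), and Mdm2 these were Plk2, a polo-like kinase, at 1.72 (SE 0.66), Rrm2b, the p53-induced subunit of ribonucleotide reductase, at 0.81 (SE 0.27), and Ei24 at 0.47 (SE 0.18), which was under 1.5-fold and is named after its value was seen. The median log2 ratio of the 20 genes was 0.42, where that of all probes was 0.09. At lower activities the number of these genes higher at an unadjusted p under 0.05 was 0 at 9 and 88 kBq, 1 at 170 and 260 kBq, 2 at 340 and 760 kBq and 4 at 1300 kBq. The share of all probes was 2.77% and 2.99% at 9 and 88 kBq, 2.16% and 0.787% at 170 and 260 kBq, 13.2% and 1.5% at 340 and 760 kBq and 3.84% at 1300 kBq, so that 2 of 20 at 340 kBq was below the share of all probes. Of 35 other genes of apoptosis, among them the BCL-2 family and the receptor adaptors, 0 had an adjusted p under 0.05 at 4700 kBq, and 1, the BH3-only gene Bcl2l11 (BIM), was higher at an unadjusted p under 0.05, by 1.09 (SE 0.47, adjusted p 0.9999, limma). Their median was -0.15.

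**Figure D5:**
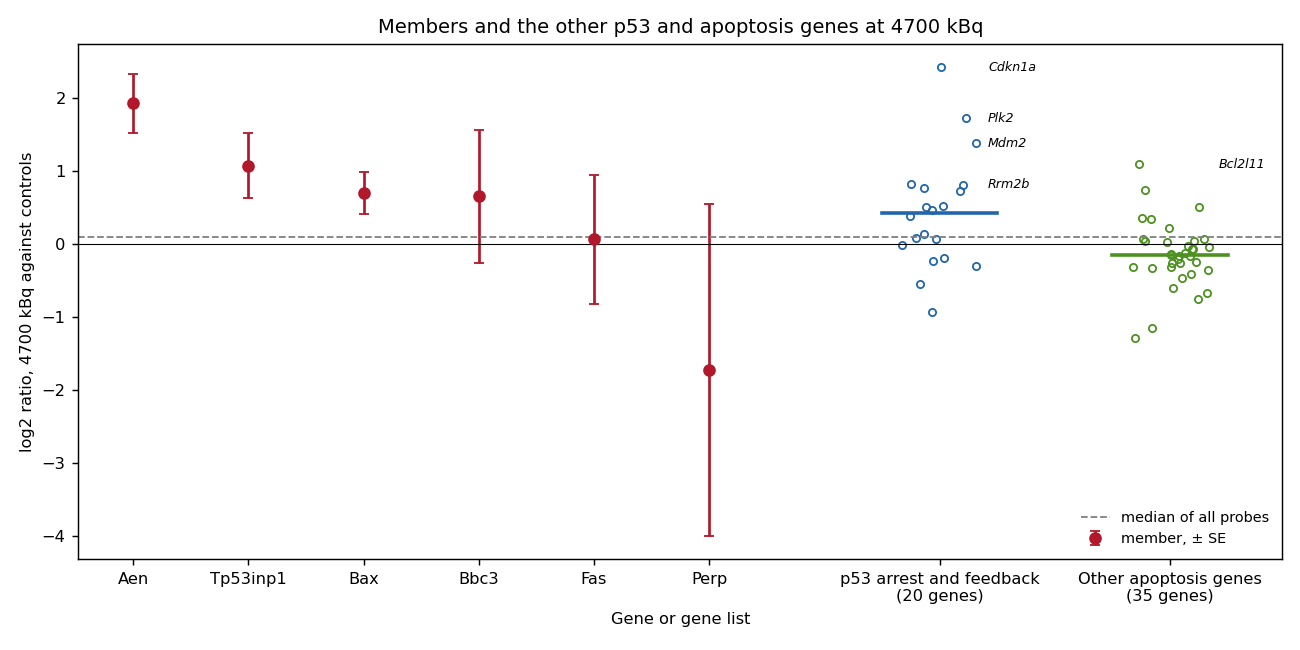
Log2 ratio of 4700 kBq to controls for the 6 measured members (± SE) and for the 20 genes of p53 arrest and feedback and the 35 other genes of apoptosis (1 point per gene, bar at the median), with the median of all probes dashed at 0.09. Aen (1.92) is the highest member, and the medians of the lists are 0.42 and -0.15.

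In order of the log2 ratio at 4700 kBq, the members ranked Aen (1.92), Tp53inp1 (1.07), Bax (0.69), Bbc3 (0.65), Fas (0.06) and Perp (-1.73), and the median shift of all probes was 0.09. At an unadjusted p under 0.05, 3 of these 6 were higher (Aen, Tp53inp1 and Bax) and 0 lower, against 1.28% and 0.372% of all probes. At the other activities the count was 1 of 6 at 260, 760 and 1300 kBq, where 0.787%, 1.5% and 3.84% of probes were higher, and Aen was that gene each time. It was 0 of 6 at 9, 88, 170 and 340 kBq, where the share of probes was 2.77%, 2.99%, 2.16% and 13.2%. Within the slides that held both groups, the difference between 4700 kBq and controls was 1.52 on slide 1 (2 rats against 2) and 2.22 on slide 5 (1 against 1) for Aen. It was 0.64 and 1.83 for Tp53inp1, 0.39 and 0.92 for Bax, 0.05 and 0.85 for Bbc3, 0.21 and 2.03 for Fas, and -4.14 and -0.14 for Perp. Slide 1 held rat 3 of both groups.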

How the data were processed

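One array was hybridised per rat. The authors deposited scanner files whose processed signals are intensity values per spot, less the background and a spatial trend that Feature Extraction 10.7.3.1 estimated and not normalized between arrays, and the well-above-background and outlier columns are other values, the software's flags as deposited. The matrix deposited by the authors holds intensity values quantile normalized between arrays and served as an alternative (per the labels, Partek was used).

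Control and outlier spots were left out, log2 signals had each array's 75th percentile subtracted, and replicate spots were averaged per probe. A gene was read from its brightest probe, named through its RefSeq accession (17998 of 30367 probes had 1 symbol). One limma 3.58.1 fit in R 4.3.3 over 36 arrays gave the group contrasts, and a fit over 32 irradiated arrays the slope with log10 activity. P-values were adjusted by Benjamini-Hochberg over all probes. Calls needed an adjusted p under 0.01 and at least 1.5-fold for groups, after the study's methods, and under 0.05 elsewhere. Exact permutation tests (scipy 1.17.1) were two-sided. The number of arrays limits the precision, and the p-values measure the spread between rats. Genes named were the members, Cdkn1a and Mdm2, list genes with an unadjusted p under 0.05 and at least 1.5-fold at 4700 kBq (Ei24, under 1.5-fold, was added), and the 3 genes most correlated with each member, of which 1 is not reported here. The fits were tested on simulated data. Members and lists were chosen with earlier results of these data known. The alternatives were other scalings, background corrections, filters, blocks, weights, tissue covariates and leaving out each rat. Rat numbers were not taken as pairs.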

Additional observations from a re-analysis of the deposited data

Results flagged for a closer look

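Among the 54 groups of 4 rats examined (6 genes in 9 groups), 6 held 1 rat set apart from the others. Its gap to the nearest other was, as a share of the range of the group, above Dixon's critical value. Independent normal values give about 1 in 20. The 6 genes were read on the same arrays and the share over all probes was not computed, so the count is not a result about the members. Bbc3 in 340 kBq rat 4 was 0.70, with the other 3 rats between -1.53 and -1.22. That rat was the only one of its group with a follicular marker mean above 0, at 2.77. Fas was -4.10 in 170 kBq rat 3 (others -5.02 to -4.88), -3.69 in 1300 kBq rat 3 (others -4.64 to -4.58) and -4.53 in 4700 kBq rat 3 (others -3.59 to -3.42). Tp53inp1 was -2.18 in control rat 2 (others -3.13 to -2.97), the control with a lymphoid marker mean of -0.21. Perp was -3.91 in 4700 kBq rat 3 (others 2.68 to 3.52), the rat of that group whose follicular and simple epithelium means were -2.64 and -4.68. The part of the tissue sampled in these values was not tested.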

How the results depend on the processing

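The direction of Aen was the same in all 323 recomputed values, over 4 kinds of comparison and 8 activities, and the lowest was 0.18. Array weights, which give deviating arrays less say, moved the number of members called from 0 to 1 in the group comparisons, 4 in the slope with activity, 3 at 4700 kBq against lower activities and 4 in the test of any difference among activities. The share of all probes called with array weights was not recorded, so these counts cannot be read as particular to the members. No other setting beside the omission of single rats moved these counts from 0. With 1 rat left out the counts lay between 0 and 1 in the group comparisons and at 4700 kBq against lower activities, in both through 4700 kBq rat 3, and stayed at 0 in the others. The product with the follicular mean was called in 1 member, between 1 and 3 with 1 rat left out (3 without 9 kBq rat 2), and in 0 without the 4700 kBq group, where the term of Aen was 0.136 beside 0.144 with all groups. It was also called in 0 with slow muscle or squamous markers, where the term of Aen was -0.0074 and -0.037.

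Of 464 values of single genes recomputed with all rats or without a whole group, 15 had the opposite sign. For all irradiated against controls, Bbc3 was 0.059 with a slide block, 0.070 with a scan day block and 0.56 with tissue covariates, Perp was 0.18 with a slide block and 0.47 with array weights, and Fas was 0.25 with array weights and 0.076 with tissue covariates. The slope of Fas was 0.12 with array weights, 0.021 with tissue covariates and 0.093 per 1000 kBq on a linear scale, and that of Tp53inp1 was -0.11 without the 4700 kBq group. At 4700 kBq against controls, Fas was -0.16 with the normexp background and Perp 0.56 with tissue covariates. Perp at 4700 kBq against lower activities was 0.86 with tissue covariates and 2.17 against 1300 kBq alone. With 1 rat left out, the ranges that crossed 0 were, at 4700 kBq against controls, -0.74 to 0.89 for Fas and -2.46 to 0.014 for Perp, for all irradiated against controls, -0.61 to 0.18 for Bbc3 and -1.24 to 0.40 for Fas, for the slope of Fas, -0.37 to 0.029, and for Perp against lower activities, -1.83 to 0.65. The cause of these changes was not tested.

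Rats of the same number did not deviate together (mean r = -0.02 over 144 pairs of groups and numbers, -0.71 to 0.76), and the numbers were not used to pair the samples. The labels do not say whether rats of the same number shared a cage or a day, and such a correlation cannot settle it. With a replicate block the number of members called was 0 in all 5 comparisons, and Aen at 4700 kBq had an adjusted p of 0.409 (limma) at a ratio of 1.92. Normexp was run on median spot signals. Signal over background limits Pmaip1 alone among the members.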
